A study of Mus musculus with 10 samples.

Results

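The cells described here are E16.5 incisor epithelial cells that carried transcripts of *Nr2f2* and of *Igfbpl1*. They were chosen by measured counts. A cell of the E16.5 matrix was kept with at least 700 detected genes and at most 20% mitochondrial UMIs (unique molecular identifiers, each standing for a captured RNA molecule). It passed an epithelial gate with a UMI of at least 3 of 9 genes (*Epcam*, *Krt5*, *Krt14*, *Krt17*, *Dsp*, *Dsc3*, *Dsg2*, *Sfn* and *Trp63*) and of at most 1 of 3 mesenchymal genes (*Pdgfra*, *Prrx1* and *Twist1*). A member then had at least 1 UMI of *Nr2f2* and 1 of *Igfbpl1*, at most 1 UMI of *Shh*, and none of *Krt15*, *Meis2* or *Cldn10*. Of 4511 cells kept at E16.5, 1657 passed the gate and 160 were members, 9.66% of the epithelial cells (exact Clopper-Pearson 95% interval 8.28 to 11.2). The other 1497 epithelial cells of the gate are the comparison group.

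The study profiled single cells of mouse lower jaws during incisor development, taking whole mandibles at E11.5 and, at the later stages of E14.5 and E16.5, the dissected buds of the incisors. All embryos were wild type, from NMRI mice, without any allele or treatment that would separate the groups. The labels list 4, 4 and 2 samples, but each stage was deposited as 1 matrix in which barcodes do not show their sample, so a stage is 1 sample without replicates and no test was made between groups or stages. Intervals are given at 95% and cover counting error alone. Members held a median of 7341.5 UMIs and 2448 genes per cell, and the other epithelial cells 7122 UMIs and 2442 genes. The median mitochondrial share was 3.38% in members and 3.63% in the others. The E16.5 matrix shared 17 barcodes with the E11.5 matrix and 16 with the E14.5 matrix.

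*Nr2f2* encodes an orphan nuclear receptor that binds DNA and shapes the identity of many epithelial and mesenchymal cell types. *Igfbpl1* encodes a secreted protein related to the insulin-like growth factor binding proteins, and *Wnt4* a secreted Wnt ligand. In the growing incisor the epithelium is layered. The inner enamel epithelium faces the dental mesenchyme, produces *Shh* and gives rise to ameloblasts, the cells that make enamel. The stratum intermedium lies behind it, and the stellate reticulum, the outer enamel epithelium and the cervical loop with its *Sox2*+ stem cells complete the organ.

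The markers named for these cells were examined first. Levels are given as CPM, the UMIs of a gene in every 1000000 UMIs pooled from a group, and differences as log2 ratios after 10 CPM were added to both levels. *Nr2f2* was at 365 CPM in members and 155 in the other epithelial cells, and *Igfbpl1* at 313.5 and 129.8, which the choice of members fixed. *Wnt4*, the third marker, was not used by the choice and did not follow it. *Wnt4* was at 186 CPM in members (interval 165 to 208) and 215 in the other cells (208 to 222), a log2 ratio of -0.20 (-0.36 to -0.04). A *Wnt4* UMI was present in 61.2% of members and 53.4% of the other cells. After each cell was thinned to 2000 UMIs, which left out 4 members and 107 other cells, the shares were 26.3% (19.6 to 33.9) and 29.3% (26.9 to 31.8). In 1471 mesenchymal cells of the same matrix, gated by a UMI of at least 2 of the 3 mesenchymal genes and of at most 1 of the 9 epithelial genes (median 6541 UMIs), 5.78% had a *Wnt4* UMI. With a UMI of *Nr2f2* or of *Igfbpl1* enough to choose a cell, the log2 ratio of *Wnt4* was 0.37. *Wnt4* thus did not single out the chosen cells within the epithelium, and they are called *Nr2f2*+ *Igfbpl1*+ cells below.

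Among markers of the dental epithelium, the homeobox gene *Pitx1* was at 82.5 CPM in members against 3.58 in the mesenchymal cells, and *Sp6*, a transcription factor of the enamel organ, at 127 against 15.8. *Irx1*, also a homeobox gene, was nearly missing at 3.64 CPM in members, and was at 24.4 in the other epithelial cells. *Lef1* was at 41.2 CPM in members, below its 174.5 CPM in the mesenchymal cells, so it did not separate the tissues. Of the markers of the inner enamel epithelium, *Vwde* was at 258 CPM in members and 147.5 in the other cells, and *Fgf9* was level at 34.6 and 35.2. The log2 ratio of *Vwde* was 0.77, and -0.62 with a UMI of *Nr2f2* or of *Igfbpl1* enough to choose a cell. Of the markers of the stratum intermedium, *Notch1* was at 7.28 CPM in members and 37.6 in the other cells, *Alpl* at 9.10 and 74.2, and *Jag1* at 18.2 and 25.8. In that list *Hey1*, ranked through members alone, was at 17.6 and 11.4 CPM, a log2 ratio of 0.37 (0.008 to 0.74). *Jag2* was at 49.1 and 39.5, a log2 ratio of 0.26 (-0.03 to 0.54), and neither gene differed 2-fold. *Thbd* had no UMI in members and 0.358 CPM in the other cells, too few to compare.

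Few genes set members apart from the rest of the epithelium. Genes were ranked if 10% or more of the cells of one group carried them and their counts reached 50, and genes that chose the cells were set aside. Among the 8105 ranked genes 13 were at least 2-fold higher in members, 0.16% of those ranked. At least 2-fold lower were 59 genes, 0.728%. The median log2 ratio over all ranked genes was -0.05. These counts come from the contrast that chose the members and describe it. They depended on the added CPM, with 52 higher and 161 lower genes at 1 CPM added and 5 and 7 at 50.

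*Stmn2* and *Gnrh1* had the largest ratios, and *Tubb3* ranked 8. All of them are genes best known from neurons, and other genes of that kind, such as *Sema3a* and *Nrxn3*, were among the 15 smallest ratios. *Stmn2*, which encodes a stathmin that binds tubulin in growing axons, was at 264 CPM in members (interval 240.2 to 290.4) and 60.6 in the other epithelial cells (56.9 to 64.4), for a log2 ratio of 1.96 (1.80 to 2.11). A *Stmn2* UMI was found in 44.4% of members, 13.3% of the other epithelial cells and 15.4% of the mesenchymal cells, whose level was 46.1 CPM (42.3 to 50.1). At 2000 UMIs these shares were 33.3%, 7.41% and 7.10%. *Gnrh1*, which encodes the precursor of gonadotropin-releasing hormone, was at 476 CPM in members and 171 in the others, a log2 ratio of 1.42 (1.31 to 1.53). Its UMIs were seen in 73.1% of members, 41.1% of the other epithelial cells and 4.01% of the mesenchymal cells. *Tubb3*, a beta-tubulin typical of neurons, was at 215 and 91.4 CPM, with a log2 ratio of 1.15 (0.99 to 1.31). A *Tubb3* UMI was found in 61.9% of members and 37.2% of the others. Over 15 alternative settings the lowest log2 ratios were 0.685 for *Stmn2*, 0.27 for *Gnrh1* and 0.16 for *Tubb3*, all below 2-fold.

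The other genes of the 15 largest ratios had mixed roles. *Pid1*, an adaptor protein that acts in insulin signaling, was at 108 CPM in members and 40.2 in the other cells, a log2 ratio of 1.23. *Fn1*, which encodes the matrix protein fibronectin, was at 149 and 58.9 CPM, a log2 ratio of 1.20. *Foxp2*, a forkhead transcription factor, was low in absolute terms, at 30.3 and 7.75 CPM, with a log2 ratio of 1.18 (0.85 to 1.51). *Foxp2* was ranked through members alone, as its UMIs in the other cells were too few to meet the filter on the share of cells. The filter thus favoured its place among the higher genes. Over the alternative settings the lowest ratios were 0.28 for *Pid1*, 0.49 for *Fn1* and 0.05 for *Foxp2*. *Anxa8* and *Serpinb2*, an annexin and a serine protease inhibitor, had log2 ratios of 1.05 and 1.03, and the predicted gene *Gm45941* had 1.04. *Dkk1*, which encodes a secreted inhibitor of Wnt signaling, was at 25.5 and 7.69 CPM, a log2 ratio of 1.003 (0.66 to 1.35). It was ranked through members alone. With cells thinned to 2000 UMIs before they were chosen, its ratio was reversed at -0.997 (-1.30 to 0.80). *Serpinf1* and *Itm2a* stood just under a 2-fold difference, with log2 ratios of 0.99 and 0.96.

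The remaining 3 of these genes were haemoglobin genes. *Hbb-bs* was at 5788 CPM in members and 2581 in the other cells, and *Hba-a1* and *Hba-a2*, near-identical copies between which reads may be split, had log2 ratios of 1.16 and 1.10. Haemoglobin genes made up more than 1% of the UMIs in 5 members and 22 other cells, and the 5 members held 98.3% of all haemoglobin UMIs of the group. Without such cells the log2 ratios were -0.09 for *Hbb-bs*, 0.00 for *Hba-a1* and -0.33 for *Hba-a2*, so the raised haemoglobin level was that of 5 cells. The count of genes at least 2-fold higher was then 12 and that of genes at least 2-fold lower 58.

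**Figure D1:**
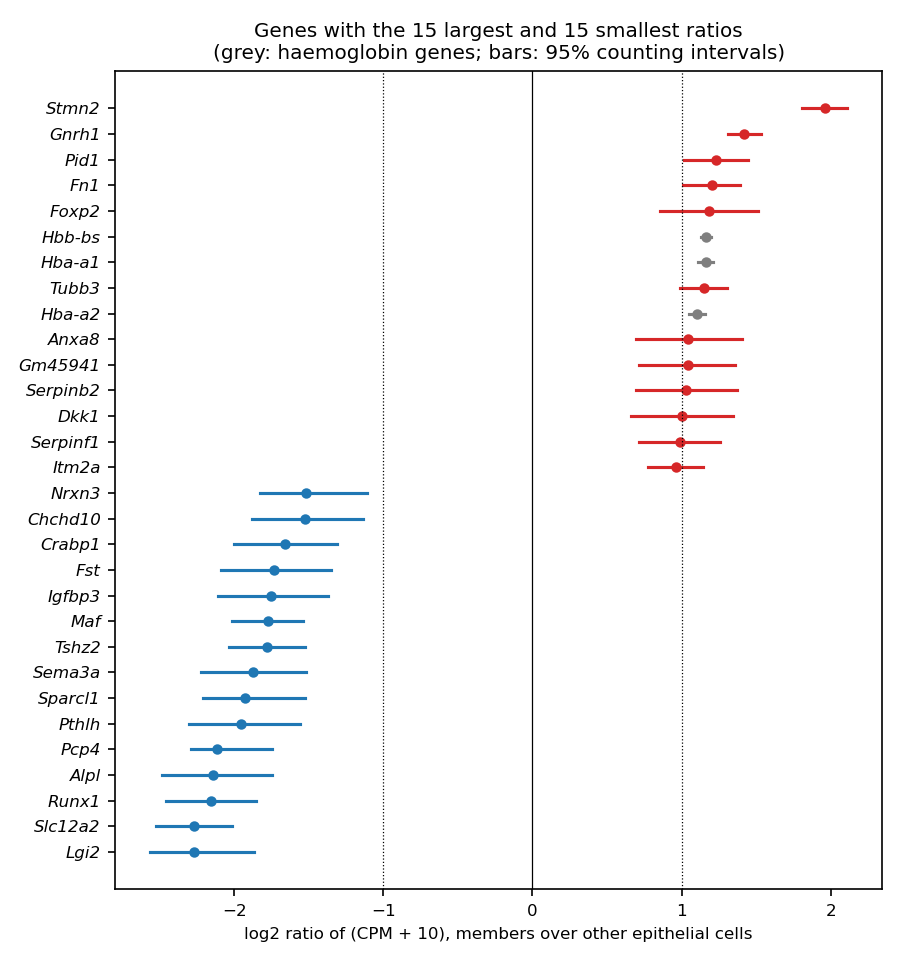
Log2 ratio of CPM with 10 CPM added (x axis) in the 160 Nr2f2+ Igfbpl1+ cells over the 1497 other epithelial cells of E16.5, for the genes with the 15 largest (red, haemoglobin genes grey) and 15 smallest ratios (blue). Points are ratios, bars are 95% counting intervals and dotted lines mark 2-fold differences. Stmn2 stands apart at 1.96, and the blue genes reach -2.27.

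At full depth the lower side held more genes and larger ratios. When cells were thinned to 2000 UMIs before they were chosen, the balance turned, with 94 genes higher and 81 lower. Cells with *Krt15*, *Meis2* or *Cldn10* were barred from members but kept in the comparison group. Against only the cells that pass the limits on *Shh* and these genes, chosen after seeing the data, 45 genes were higher and 52 lower. *Lgi2*, which encodes a secreted leucine-rich protein, was at 4.25 CPM in members and 58.8 in the other epithelial cells, which gave a log2 ratio of -2.27 (-2.56 to -1.87). *Slc12a2*, the sodium, potassium and chloride cotransporter of many epithelia, was at 58.2 and 318 CPM, also with a log2 ratio of -2.27 (-2.53 to -2.02). *Runx1*, a transcription factor, was at 35.8 and 194 CPM, a log2 ratio of -2.15. *Alpl*, the tissue-nonspecific alkaline phosphatase of the stratum intermedium, had a log2 ratio of -2.14 (-2.49 to -1.75). *Pcp4*, a regulator of calmodulin, rested on 2 UMIs in members, and its log2 ratio was -2.12 (-2.29 to -1.75). *Pthlh*, which encodes the parathyroid hormone-related protein, was at 9.10 and 64.1 CPM, a log2 ratio of -1.96. Over the alternative settings the ratios nearest 0 were -1.003 for *Lgi2*, -0.19 for *Slc12a2* and -1.19 for *Runx1*. For *Alpl*, *Pcp4* and *Pthlh* they were -0.73, -0.79 and -0.95.

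The other 9 of the 15 smallest ratios lay between -1.93 and -1.52. They belonged to the matricellular gene *Sparcl1*, the guidance ligand *Sema3a*, the zinc finger gene *Tshz2*, the transcription factor *Maf*, *Igfbp3*, the activin inhibitor *Fst*, the retinoic acid binding protein *Crabp1*, the mitochondrial gene *Chchd10* and the neurexin *Nrxn3*. Each was less than 2-fold lower under some alternative setting, and *Fst* came nearest to 0 at -0.16. *Maf* was at 70.3 CPM in members and 265 in the other cells, and *Igfbp3* at 12.1 and 64.8. In the same contrast *Sox2* was at 1.82 CPM in members, at the level that 3 UMIs give, and at 16.2 in the others. Of other genes that the study named, *Lgr5* was at 0.606 and 1.13 CPM, *Bmi1* was level at 23.7 and 22.2, and *Sfrp5* was at 4.85 and 17.7. No UMI of *Prdm6* was found in members, and *Acta2* was at 1.21 CPM. The nonmuscle myosin heavy chains *Myh9*, *Myh10* and *Myh14* were at 119, 88.5 and 6.67 CPM in members and at 108, 150.2 and 17.2 in the others.

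The sum of inner enamel epithelium genes was higher in members, on a list drawn up with earlier results of these data in view. The list of inner enamel epithelium and preameloblast genes summed to 1549 CPM in members and 979 in the rest of the epithelium, and the log2 ratio was 0.66 (0.60 to 0.72). Among its 20 genes 12 were ranked, 2 of them (*Tubb3* and *Dkk1*) were at least 2-fold higher and 0 lower (0.16% and 0.728% of all ranked genes), and their median log2 ratio was 0.47 against -0.05 for all ranked genes. *Dkk1*, *Col22a1*, *Ambn* and *Sp5* were ranked through members alone, as less than 10% of the other cells carried them, so the filter raised this count and median, while the sum covers the whole list. Its gene with most UMIs was *Satb1*, a chromatin organizer, at 323 and 210.1 CPM. With a UMI of *Nr2f2* or of *Igfbpl1* enough to choose a cell, the ratio of the sum turned to -0.11. Of the enamel matrix genes, *Ambn* was at 18.8 CPM in members (12.8 to 26.7), 13.7 in the other epithelial cells and 41.1 in the mesenchymal cells, and members had no UMI of *Amelx*.

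The list of axon guidance and neuronal-type genes summed to 1876 and 1214 CPM, a log2 ratio of 0.62. It was not uniform. Of 17 ranked genes, *Stmn2*, *Gnrh1* and *Tubb3* were at least 2-fold higher, and the ligands *Sema3a*, *Sema3e* and *Efnb2* at least 2-fold lower, with log2 ratios of -1.88, -1.18 and -1.05. Of all ranked genes 0.16% were higher and 0.728% lower by this measure. The median of the ranked genes was 0.26. Wnt ligands and the genes for their secretion summed to 810 and 707 CPM, 0 of 7 ranked genes differed 2-fold, and the gene with most UMIs was *Wls*, the Wnt carrier, at 410.0 and 278 CPM. Wnt receptors, antagonists and targets summed to 1616 and 1856 CPM, with *Dkk1*, whose ratio was reversed by thinning, as the 1 gene of 22 beyond 2-fold. *Bambi*, a pseudoreceptor for BMP ligands that heads this list by UMIs, was at 567 and 349 CPM.

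The Notch list was divided. It summed to 322 CPM in members and 512 in the other cells, a log2 ratio of -0.65 (-0.78 to -0.53), while 5 of its 10 ranked genes lay above 0 and 5 below, with a median of -0.01. *Hey1* and *Rfng* were ranked through members alone, and *Notch1* and *Nrarp* through the other cells alone. The filter thus shaped this split and median, while the sum covers the whole list. The sum was carried by the receptors *Notch1* and *Notch2*, with log2 ratios of -1.46 and -1.27, and the target *Hes1*, with -1.23, and 0 genes were 2-fold higher. The transcription factor genes *Hey1* and *Hes6* had log2 ratios of 0.37 and 0.36, and the ligand *Jag2* 0.26. The stratum intermedium list shares genes such as *Notch1*, *Hes1*, *Hey1* and *Jag2* with it, so the 2 lists are not independent. That list summed to 872 and 1160 CPM, with 3 of 8 ranked genes at least 2-fold lower against 0.728% of all ranked genes. *Gja1*, a gap junction gene with most UMIs of that list, was at 685 and 773 CPM.

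Other lists had sums close to those of the other cells. Genes of G2 and M phase summed to 2410 CPM in members and 2434 in the other cells, a log2 ratio of -0.01 (-0.06 to 0.03), and genes of S phase to 1114 and 1098. Chaperones and folding enzymes of the endoplasmic reticulum summed to 6694 and 6661 CPM, a log2 ratio of 0.01 (-0.02 to 0.04), and 0 of 28 ranked genes differed 2-fold. Among all ranked genes 0.16% were at least 2-fold higher and 0.728% lower. When cells were thinned to 2000 UMIs before they were chosen, the ER ratio was 0.38. Actomyosin genes summed to 7578 and 7727 CPM, with 0 of 22 beyond 2-fold, and basement membrane and hemidesmosome genes to 1932 and 1912. The Hedgehog list, whose ligand *Shh* helped to choose the cells, summed to 418 and 645 CPM, but its target *Ptch1* was nearly level at 205 and 225 CPM and *Gli1* was at 30.9 and 36.4.

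The list of the outer enamel epithelium, stellate reticulum and cervical loop summed to 1097 and 972 CPM, a log2 ratio of 0.17, while the median of its 5 ranked genes was -0.18. Its sum was mostly *Igfbp5*, whose ratio changed sign under an alternative setting, and *Notch2* and *Pcp4* were at least 2-fold lower. Of all ranked genes 0.16% were at least 2-fold higher and 0.728% lower. The enamel knot list also holds *Shh*, so its sum partly followed the choice and is not compared. Dental transcription factors summed to 2352 and 2244 CPM, with *Irx1* as the 1 of 17 ranked genes beyond 2-fold. Sums and medians also differed in sign for the BMP and activin list (0.092 and -0.038) and the IGF list (0.073 and -0.24).

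Among the remaining lists, FGF genes summed to 680 and 719 CPM with 0 of 11 ranked genes beyond 2-fold, and BMP and activin genes to 2615 and 2453 with *Fst* as the 1 of 17. For comparison, 0.16% of all ranked genes were at least 2-fold higher and 0.728% lower. The IGF list summed to 1561 and 1484 CPM. Its gene with most UMIs, *Igfbp5*, was at 985 and 686 CPM, whereas *Igfbp3* was at least 2-fold lower. The log2 ratio of *Igfbp5*, 0.51, kept its sign in 14 of 15 alternative settings and was as low as -0.36. The retinoid list summed to 508 and 595 CPM, with *Crabp1* lower, and the ectodysplasin list to 240.2 and 317, with *Fst* lower. Keratins outside the gate summed to 100.7 and 160.2 CPM, with *Krt8* at 2.43 and 17.6. Junction genes summed to 1845 and 2102 CPM, with *Nectin3* and *Nectin4* lower. Genes of the stress response summed to 2201 and 2747 CPM, and all 13 ranked genes were below 0 in log2 ratio, with *Atf3* at -1.41 as the 1 gene beyond 2-fold. Their median was -0.45, and that of all ranked genes was also below 0, at -0.05.

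**Figure D2:**
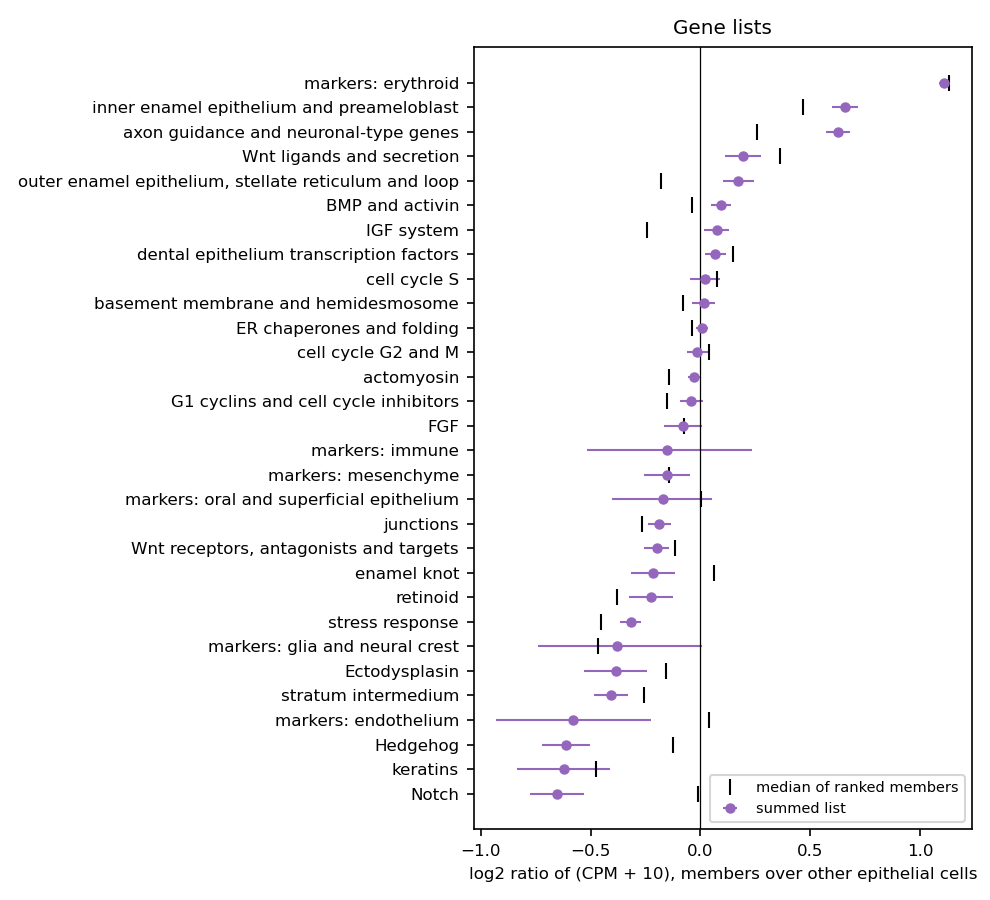
Log2 ratio of summed CPM of 30 gene lists (x axis) in Nr2f2+ Igfbpl1+ cells over the other epithelial cells of E16.5. Purple points with bars are the sums with 95% counting intervals and black ticks the medians of the ranked genes of a list. Lists of the inner enamel epithelium and of neuronal-type genes lie near 0.6, cell cycle and ER lists near 0, and the Notch list at -0.65, with its median tick near 0.

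Cells just outside the choice were compared with the members. Of the 951 epithelial cells with at most 1 *Shh* UMI and none of *Krt15*, *Meis2* and *Cldn10*, 160 were members, 314 had *Nr2f2* without *Igfbpl1* (*Nr2f2*+ cells), 66 had *Igfbpl1* without *Nr2f2* (*Igfbpl1*+ cells) and 411 had neither (double-negative cells). Their median depths were 7341.5, 8293, 4699.5 and 4160 UMIs. Shares are given after thinning to 2000 UMIs as well, which equalizes the detection of the gene measured but not of *Nr2f2* and *Igfbpl1*, read at full depth.

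At full depth, for *Vwde*, *Gnrh1* and *Tubb3* the *Igfbpl1*+ cells were nearer to the members, and the *Nr2f2*+ cells to the double-negative cells. *Vwde* was at 258 CPM in members and 249 in *Igfbpl1*+ cells, but at 28.1 in *Nr2f2*+ cells and 22.7 in double-negative cells. At 2000 UMIs, *Vwde* was detected in 39.7% of members (32.01 to 47.9) and 34.4% of *Igfbpl1*+ cells (22.7 to 47.7), against 6.78% of *Nr2f2*+ cells (4.19 to 10.3) and 2.96% of double-negative cells (1.43 to 5.37). *Gnrh1* was at 476 CPM in members and 359 in *Igfbpl1*+ cells, and at 96.2 in *Nr2f2*+ cells and 108 in double-negative cells. *Tubb3* was at 215 and 154 CPM in the Igfbpl1-positive groups and at 58.3 and 52.9 in the others.

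*Slc12a2* was the mirror image, with 58.2 CPM in members and 39.2 in *Igfbpl1*+ cells, and 389 and 392 in *Nr2f2*+ and double-negative cells. At 2000 UMIs it was detected in 7.05%, 9.84%, 30.8% and 39.6% of the cells. *Sostdc1*, which encodes a secreted modulator of BMP and Wnt signals, was at 446 and 272 CPM against 1027 and 993. *Wnt4* likewise was at 186 CPM in members and 123 in *Igfbpl1*+ cells, and at 300.2 and 287 in *Nr2f2*+ and double-negative cells. The inner enamel epithelium list summed to 1549 CPM in members, 1416 in *Igfbpl1*+ cells, 658 in *Nr2f2*+ cells and 576 in double-negative cells.

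*Stmn2* and *Fn1* did not follow *Igfbpl1* alone. *Stmn2* was at 264 CPM in members, 121 in *Igfbpl1*+ cells (87.2 to 162), 37.3 in *Nr2f2*+ cells and 24.1 in double-negative cells, so it was highest where both transcripts were found. At 2000 UMIs it was detected in 33.3% of members (26.0 to 41.3), 14.8% of *Igfbpl1*+ cells (6.98 to 26.2), 4.75% of *Nr2f2*+ cells and 4.14% of double-negative cells. *Foxp2* was at 30.3 CPM in members and between 6.95 and 11.2 in the other 3 groups. *Fn1* was at 149 CPM in members, 89.7 in *Igfbpl1*+ cells, 94.4 in *Nr2f2*+ cells and 61.7 in double-negative cells, and at 2000 UMIs its shares in members and *Nr2f2*+ cells were 20.5% and 21.02%.

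In a further comparison, chosen after seeing the data, the cells were thinned to 2000 UMIs before the genes of the choice were read, so that groups were assigned at equal depth. This gave 82 cells with both transcripts, 132 with *Igfbpl1*, 240 with *Nr2f2* and 784 with neither, with median depths before thinning of 6535, 7707.5, 8077 and 7690.5 UMIs. The limits on *Shh*, *Krt15*, *Meis2* and *Cldn10* were also read at that depth. These groups therefore took in cells that the limits had left out at full depth. *Vwde* was at 494 CPM (392 to 614), 386 (315 to 469), 112.5 (84.5 to 147) and 64.4 (52.5 to 78.3) in this order, and *Slc12a2* at 42.7, 18.9, 244 and 348. *Stmn2* was at 482 CPM (381 to 600.4), 216 (164 to 280), 110.4 (82.7 to 144) and 42.1 (32.6 to 53.6). The order of *Vwde* and *Stmn2* was that found at full depth. *Gnrh1* was at 567 CPM (458 to 695), 443 (367 to 531), 317 (268 to 371) and 141 (123 to 161), so that here the cells with *Nr2f2* alone lay nearer to those with *Igfbpl1* alone than to those with neither. *Fn1* was at 91.5 CPM (51.2 to 151) with both transcripts and 148 (116 to 187) with *Nr2f2* alone, so its order turned.

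**Figure D3:**
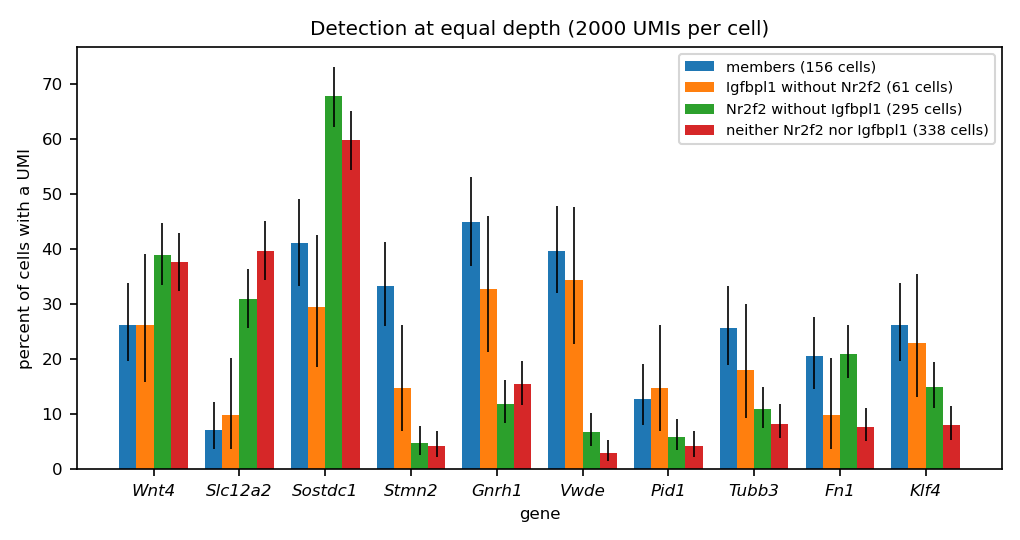
Percent of cells with a UMI (y axis) for 10 genes (x axis) after every cell was thinned to 2000 UMIs, in members, Igfbpl1+ cells, Nr2f2+ cells and double-negative cells of E16.5. Bars are shares and lines exact 95% binomial intervals. Vwde and Gnrh1 are high in members and Igfbpl1+ cells, Slc12a2 and Sostdc1 in the other groups, and Stmn2 is highest in members at 33.3%.

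*Vwde* and *Gnrh1* were alike in members at the lower limit of the choice and in the rest, while cell cycle genes were not. In 17 members with exactly 1 UMI of each gene, *Vwde* was at 256 CPM and *Gnrh1* at 429.6, and in the 143 with more, at 258 and 479. Genes of G2 and M phase summed to 1435 CPM (1219 to 1678) in the 17 and 2479 (2401 to 2559) in the 143, and genes of the stress response to 1517 and 2250. The 17 were shallower, with a median of 6329 UMIs against 7682, and the part of depth in this contrast was not tested. The limit on *Shh* left out the largest group of cells. Of all 368 epithelial cells with both transcripts, 178 had at least 2 *Shh* UMIs. The 41 members with 1 *Shh* UMI had *Stmn2* at 398 CPM and *Igfbpl1* at 460.2, and the 119 members without *Shh* had 226 and 271. In 27 cells that had exactly 2 *Shh* UMIs and otherwise met the criteria, *Stmn2* was at 488 CPM and *Igfbpl1* at 527, and in the 107 cells with 3 or more, *Stmn2* was at 142 and *Igfbpl1* at 610.4. *Vwde* was at 236 CPM without *Shh*, 333 with 1 UMI of it, 390 with 2 and 523 with 3 or more.

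Among the epithelial groups defined by other genes, the sum of inner enamel epithelium genes was closest to that of members in the cells with at least 2 *Shh* UMIs (371 *Shh* cells, median 9816 UMIs). The inner enamel epithelium list summed to 1649 CPM in *Shh* cells against 1549 in members. Apart from haemoglobin genes, the ranked gene most raised in members over *Shh* cells was *Dkk1*, at 25.5 and 2.16 CPM, a log2 ratio of 1.54 (1.17 to 1.89). It was ranked through members alone, on 42 UMIs in them, and its ratio over all other epithelial cells was reversed by thinning. The smallest ratios were those of Enpp2, which encodes autotaxin, with -1.83, *Matn4* with -1.52, *Cttnbp2* with -1.496, *Alpl* with -1.49 and *Ifitm3* with -1.49. ER chaperones and folding genes were lower in members, at 6694 against 8540 CPM, a log2 ratio of -0.35 (-0.38 to -0.32). The sum of mesenchymal markers, described below, was higher in members than in *Shh* cells, with a log2 ratio of 0.72 (0.59 to 0.84). Genes of G2 and M phase differed by a log2 ratio of -0.06 (-0.11 to -0.01). Axon guidance and neuronal-type genes summed to 1694 CPM in *Shh* cells, so the ratio of members over them was 0.15 (0.09 to 0.21), well below that over all other epithelial cells. This list summed to 2613 CPM in the 27 cells with exactly 2 *Shh* UMIs.

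The contrast was larger with the 173 cells that had *Krt15* or *Meis2*, and with the 302 cells that had *Cldn10*. Over *Krt15* or *Meis2* cells, *Stmn2* had a log2 ratio of 1.58, and *Lgi2*, *Slc12a2*, *Sparcl1*, *Alpl* and *Runx1* had ratios between -3.39 and -3.02. Over *Cldn10* cells, *Stmn2* led with 2.67 (2.46 to 2.88), followed by the proteoglycan *Dcn* with 1.83, *Fn1* with 1.83, *Tubb3* with 1.71 and *Rnf152* with 1.60, and *Lgi2*, *Pcp4*, *Runx1*, *Pthlh* and *Alpl* were at the other end, between -3.11 and -2.64. Genes of G2 and M phase summed to 2410 CPM in members against 1681 in *Krt15* or *Meis2* cells, a log2 ratio of 0.52 (0.46 to 0.58), and to 2342 in *Cldn10* cells, a log2 ratio of 0.04. The sum over the Notch list, in which *Hes1* had most UMIs, had log2 ratios of -1.07 and -0.95. These 3 groups share cells with each other, 31 of them between *Shh* and *Krt15* or *Meis2*, 75 between *Shh* and *Cldn10* and 40 between the last pair, but none with the members.

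**Figure D4:**
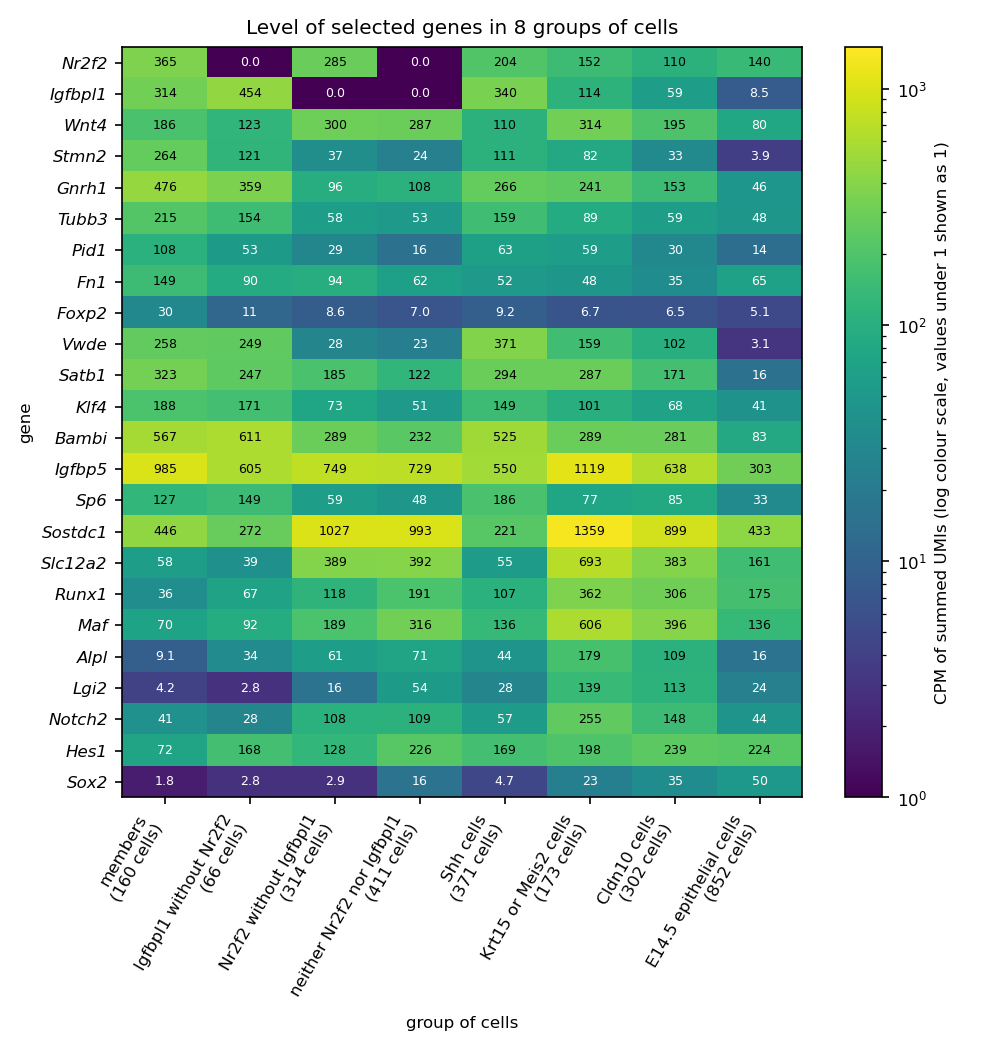
CPM of selected genes (rows) in members, the 3 groups just outside the choice, the 3 groups defined by Shh, Krt15 or Meis2, and Cldn10, and all E14.5 epithelial cells (columns), with the value printed in each field on a log color scale. Zeros of Nr2f2 and Igfbpl1 follow from the definition of the groups. Vwde is at 258 CPM or near it in members and Igfbpl1+ cells and under 30 in the groups without Igfbpl1, and Slc12a2 shows the opposite.

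Most members fell into a part low and a part high in cell cycle genes. The 1657 epithelial cells were clustered without the genes of the choice and the gate, *Wnt4*, mitochondrial and haemoglobin genes, which gave 7 clusters numbered by their members. Cluster 1, led by *Stmn2*, *Gnrh1* and *Ambn*, held 80 members, 50% of them (42.0 to 58.0), and 20.8% of the other epithelial cells. Cluster 2, led by *Prc1* and histone genes, held 64 members, 40% (32.3 to 48.0), and 28.4% of the others. Clusters 3 to 6 held 5, 5, 3 and 3 members. No member was in cluster 7, led by *Pcp4*, *Crabp1*, *Pthlh*, *Sox2* and *Cldn10*, which held 13.2% of the other cells. Of its 198 cells 113 had *Cldn10* and 30 had *Krt15* or *Meis2*. The choice barred these genes from members, so their absence from this cluster partly follows the choice. As the leading genes named here, apart from *Cldn10*, took part in the clustering, the shares describe where the cells lie. Clusters 1 and 2 held 45.8% and 38.3% of the *Shh* cells, and clusters 5 and 7 held 6.74% and 4.31%, while the *Igfbpl1*+ cells had 56.1% and 19.7%. Of the *Nr2f2*+ cells 14.6% were in cluster 1 and 48.1% in cluster 2, and of the double-negative cells 8.27% and 14.1%.

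Genes of G2 and M phase summed to 381 CPM in the members of cluster 1 and 3906 in those of cluster 2. *Ube2c*, which serves mitotic exit, was at 27.3 and 496 CPM, *Top2a*, the topoisomerase of replicated DNA, at 69.2 and 778, and Cenpf, a kinetochore protein, at 29.2 and 558. The members of cluster 1 had more of the genes that describe the whole group, with *Stmn2* at 517.5 CPM against 164.5, *Gnrh1* at 776 against 341, *Vwde* at 419 against 200.1 and the collagen *Col22a1* at 85.6 against 11.1. *Nr2f2* was at 470.1 and 338 CPM and *Igfbpl1* at 479 and 239. *Tubb3* and *Fn1* went the other way, with 146 and 137 CPM in cluster 1 against 262 and 167 in cluster 2. *Stmn2*, *Gnrh1*, *Vwde* and *Col22a1* are leading genes of cluster 1, and *Ube2c* and *Top2a* of cluster 2. Their differences therefore describe how the clusters were drawn. The members of cluster 2 were deeper, with a median of 10842 UMIs against 5678.5, and the part of depth in all these differences was not tested.

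**Figure D5:**
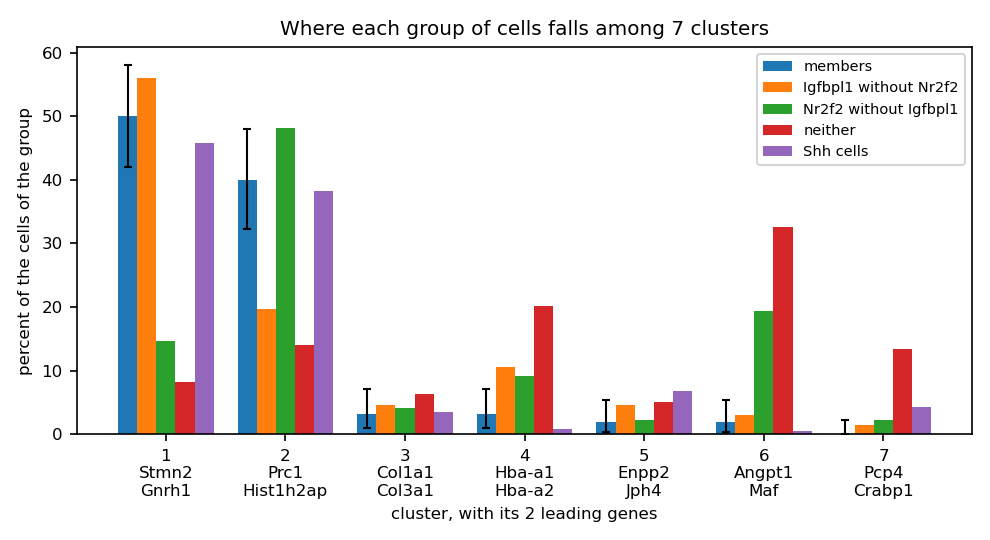
Percent of the cells of a group (y axis) in each of 7 clusters of the E16.5 epithelial cells (x axis, with the 2 leading genes), for members, Igfbpl1+, Nr2f2+, double-negative and Shh cells. Lines on the member bars are exact 95% binomial intervals. Clusters 1 and 2 hold 50% and 40% of the members and 45.8% and 38.3% of the Shh cells. No member is in cluster 7, where 113 of 198 cells have Cldn10, which the choice barred from members.

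Single members differed widely. *Nr2f2* counts ran from 1 to 34 UMIs with a median of 3, and 49 members had exactly 1. *Igfbpl1* ran from 1 to 23 with a median of 2, and 59 members had exactly 1. *Wnt4* was not detected in 62 members (38.8%), *Stmn2* in 89 (55.6%), *Gnrh1* in 43 (26.9%) and *Vwde* in 51 (31.9%). The 5 members with most *Stmn2* held 26.6% of its UMIs, and for *Gnrh1* this was 22.5%. For *Slc12a2*, which had no UMI in 117 members, it was 51.0%. *Hbb-bs* stood out, with 98.2% of its UMIs in 5 cells. The share of members among epithelial cells was 6.04% in the shallowest of 4 equal bins of cells ordered by UMIs and 13.0%, 9.18% and 10.4% in the next 3. When cells were thinned to 2000 UMIs before they were chosen, the share was 5.71% in place of 9.66%, so membership moved with depth.

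Across the 1657 epithelial cells, the genes whose levels were most like *Igfbpl1* were *Vwde* (Pearson r = 0.61), *Shh* (0.51), *Pam* (0.46), *Slc40a1* (0.45) and *Nudt4* (0.44). Those most like *Nr2f2* were *Igfbpl1* (0.33), *Vwde* (0.32), *Pid1* (0.31), *Satb1* (0.30) and *Stmn2* (0.29). Those most like *Wnt4* were *Sostdc1* (0.41), *Igfbp5* (0.40), *Npnt* (0.39), *Slc12a2* (0.37) and *Sulf1* (0.37), and *Wnt4* had r = 0.12 with *Nr2f2* and -0.09 with *Igfbpl1*. The correlations were taken on the log of counts scaled to 10000 UMIs per cell, over 7805 genes. They describe cells of 1 matrix that share their library and differ in depth.

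The same choice found 1 cell 2 days earlier. Of 852 epithelial cells of E14.5, 1 met it, 0.117% (0.00297 to 0.652), and of 6 epithelial cells of E11.5, 0. The median depth of the E14.5 epithelial cells was 4960 UMIs against 7149 at E16.5. At E14.5 a UMI of *Nr2f2* was present in 320 epithelial cells, of *Igfbpl1* in 24 and of both in 10, against 368 cells with both at E16.5. Of the 10 cells, 7 had at least 2 *Shh* UMIs and 5 had *Krt15*, *Meis2* or *Cldn10*, so the limits of the choice left out most of them. *Igfbpl1* was at 8.49 CPM in the E14.5 epithelium (6.39 to 11.1) and 146 at E16.5 (141 to 152), while *Nr2f2* was at 139.8 CPM (131 to 149) and 174 (168 to 180). At 2000 UMIs, *Igfbpl1* was detected in 1.52% of E14.5 and 19.0% of E16.5 epithelial cells, and *Nr2f2* in 19.4% and 24.6%. *Igfbpl1* was detected in 0.546% of the mesenchymal cells at that depth. The other genes most like *Igfbpl1* were picked in E16.5 cells alone, so their lower levels at E14.5 only describe that choice. *Vwde* was at 3.09 and 157 CPM, *Shh* at 91.2 and 177, *Pam* at 27.5 and 113, *Slc40a1* at 17.6 and 36.9, and *Nudt4* at 121 and 394. *Stmn2* was at 3.86 and 78.8 CPM, *Satb1* at 15.7 and 220.2, and *Gnrh1* at 46.3 and 199. *Wnt4*, which did not follow *Igfbpl1*, was lower at E14.5 as well, at 80.4 CPM in the younger and 212 in the older epithelium. With 1 sample per stage, the stage cannot be told apart from the sample.

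Markers of other cell types were measured beside these results. The 12 mesenchymal markers summed to 457 CPM in members and 509 in the other epithelial cells, with 2 of 5 ranked genes above 0 in log2 ratio. *Dcn*, the gene with most UMIs, was at 241 and 165 CPM, and *Col1a2* at 29.1 and 92.3. In *Shh* cells these markers summed to 274 CPM, so the log2 ratio of members over them was 0.72 (0.59 to 0.84). It was -0.48 over *Krt15* or *Meis2* cells and 0.14 over *Cldn10* cells. The 8 endothelial markers summed to 20.01 and 34.9 CPM, and *Pecam1*, *Cdh5*, *Kdr* and *Cldn5* were at 0 in members. The 9 immune markers summed to 13.3 and 15.9 CPM, with C1qa, C1qb, C1qc and *Cx3cr1* at 0 and *Tyrobp* at 6.06 CPM. The 7 glial markers summed to 13.9 and 21.1 CPM, with *Sox10* and *Foxd3* at 0, and of the 7 muscle markers 6 were at 0. The 10 markers of oral and superficial epithelium summed to 84.3 and 96.3 CPM, with *Krt4* and *Krt13* at 0. The 8 erythroid markers, none of them at 0, summed to 11796 and 5466 CPM, led by *Hbb-bs*. The part of these markers in the other results was not tested. Fewer cells with a transcript and fewer transcripts per cell cannot be told apart in the summed levels.

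Promoter windows from 250 bases before to 50 bases after the start of transcription were looked up in RefSeq (GRCm38.p6) for the genes at least 2-fold higher or lower, since *Nr2f2* encodes a receptor whose family binds copies of the letters AGGTCA. Of the 13 higher genes 9 had an entry, and none of their 12 windows held AGGTCA on either strand. Of the 59 lower genes 42 had an entry, and 6 of 53 windows, 11.3%, held it. Over the windows of all ranked genes the share was also 11.3%, and it was 16.3% over all 32851 windows that RefSeq listed. A match is a description of letters and not of binding. The windows of *Tubb3* (chr8:123411303-123411602, plus strand) and *Pid1* (chr1:84284596-84284895, minus strand) are shown for the higher genes, and those of *Lgi2* (chr5:52566257-52566556, minus strand) and of 1 of the 2 starts of *Alpl* (chr4:137766426-137766725, minus strand) for the lower genes, each 5′ to 3′ with AGGTCA in capitals.
Tubb3: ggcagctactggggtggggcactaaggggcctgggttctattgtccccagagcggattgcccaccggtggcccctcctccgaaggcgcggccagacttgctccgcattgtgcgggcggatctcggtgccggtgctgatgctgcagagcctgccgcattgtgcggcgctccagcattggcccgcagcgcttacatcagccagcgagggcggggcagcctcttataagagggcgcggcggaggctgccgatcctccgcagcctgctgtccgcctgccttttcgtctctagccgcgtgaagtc
Pid1: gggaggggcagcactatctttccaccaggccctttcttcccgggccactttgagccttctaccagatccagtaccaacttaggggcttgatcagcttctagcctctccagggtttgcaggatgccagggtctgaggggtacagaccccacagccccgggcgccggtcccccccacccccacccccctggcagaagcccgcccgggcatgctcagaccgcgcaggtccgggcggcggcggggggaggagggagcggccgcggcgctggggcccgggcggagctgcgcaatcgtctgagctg
Lgi2: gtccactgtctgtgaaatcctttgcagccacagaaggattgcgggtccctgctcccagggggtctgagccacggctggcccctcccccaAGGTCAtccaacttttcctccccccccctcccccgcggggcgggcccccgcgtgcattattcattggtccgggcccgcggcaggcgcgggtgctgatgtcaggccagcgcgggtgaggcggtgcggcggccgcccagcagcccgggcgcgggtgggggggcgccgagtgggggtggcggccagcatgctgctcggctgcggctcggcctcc
Alpl: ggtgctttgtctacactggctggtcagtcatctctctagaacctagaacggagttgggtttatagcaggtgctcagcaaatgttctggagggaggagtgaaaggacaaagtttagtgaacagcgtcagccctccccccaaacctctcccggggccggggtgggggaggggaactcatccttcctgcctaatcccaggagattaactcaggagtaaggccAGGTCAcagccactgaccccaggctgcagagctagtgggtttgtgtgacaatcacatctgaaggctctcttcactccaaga

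Genes named above lie on GRCm38 at chr7:70351944-70366735 (*Nr2f2*, minus strand), chr4:45809468-45826923 (*Igfbpl1*, minus strand), chr4:137277489-137299726 (*Wnt4*, plus strand), chr3:8509360-8561606 (*Stmn2*, plus strand) and chr14:67745181-67749439 (*Gnrh1*, plus strand), in each case as the span of a protein-coding gene in GENCODE vM21.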

How the data were processed

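The authors made 10x Genomics 3' libraries, used Cell Ranger 4.0.0 and the mm10 build (submitters' processing notes) and deposited 1 matrix of raw UMI counts per stage, not normalized, over 32285 genes. The matrices held 8708, 8192 and 5719 barcodes and 49264075, 31670249 and 42895059 UMIs for E11.5, E14.5 and the last stage, E16.5. Barcodes could not be assigned to the labelled samples, so each stage was 1 sample, no p-value and no standard error was computed, and values of 2 stages stand side by side without a test.

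From the counts, sums per group of cells were scaled to CPM and compared as log2 ratios with 10 CPM added, for genes carried by 10% or more of the cells of one group with 50 counts or more. Intervals were exact Poisson for counts and Clopper-Pearson for shares at 95%, and those of ratios combined the Poisson bounds of both sides. Molecules of 1 cell are not independent samples, and intervals cover counting error alone. A floor of 3 counts corresponds to 1.82 CPM in members. The software was python 3.11.15, numpy 2.4.6 and, for the exact intervals, scipy 1.17.1. The clusters came from scanpy 1.11.5 (2000 variable genes, of which 1969 were used, 20 principal components, 15 neighbours, Leiden resolution 0.4). The ranking and the thinning were checked on simulated data.

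The members, the gene lists and the alternatives were chosen with earlier results of these data known. Named genes are the 15 largest and 15 smallest ratios over other epithelial cells, the 5 largest and smallest over each other group, list genes beyond 2-fold and the gene with most UMIs of a list, genes named by the study, markers, and the 5 genes most correlated with *Nr2f2*, *Igfbpl1* and *Wnt4*. *Ambn*, *Amelx*, *Sp5*, *Gli1*, *Jag2*, *Hey1*, *Hes6*, *Klf4*, *Col22a1*, Cenpf, *Top2a* and *Prc1* were named after their values were seen. A few genes that the rule names are not reported here. The planned comparison with E14.5 cells of the same choice was not made, because 1 cell met it. Scrublet called 2 of 4511 E16.5 cells doublets, which is too few to rely on, so an alternative removed cells above the 95th percentile of its scores. Gene positions came from GENCODE vM21, in which 32158 of the 32285 gene IDs were found.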

Additional observations from a re-analysis of the deposited data

How the results depend on the processing

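No paired analysis was possible because the barcodes of a stage do not show their sample, which also kept any replicate from being left out. Over 15 alternatives and 141 named genes, 1643 of 2115 ratios stayed within their counting interval. The sign changed in 123 values of 69 genes, 30 of them with either gene enough and 29 after thinning, and in 13 values of 8 of the 48 genes beyond 2-fold. Each of the 13 genes at least 2-fold higher fell below 2-fold under some alternative. Of the 15 smallest ratios, only those of *Lgi2* and *Runx1* stayed beyond 2-fold under all of them. The cause of these changes was not tested.

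With at least 2 UMIs of both genes, 22 genes were higher and 103 lower, the member share was 4.16% at E16.5 and 0% at E14.5, and the log2 ratios were 0.79 (inner enamel epithelium), 0.10 (ER), 0.17 (cell cycle), and for the cell cycle 0.11 over *Shh*, 0.69 over *Krt15* or *Meis2* and 0.21 over *Cldn10* cells. With either gene the counts were 7 and 27, the shares 32.6% and 23.4%, and the ratios -0.11, -0.15, 0.27, 0.14, 0.71 and 0.24, with *Wnt4* at 0.37, *Vwde* at -0.62 and with *Irx2* at 0.12, *Mest* at 0.14 and *Ntrk2* at 0.23, all reversed. Without any *Shh* UMI the shares were 7.18% and 0%, and the ratios 0.59, -0.033, 0.064, 0.013, 0.59 and 0.11. After thinning, 94 genes were higher and 81 lower, the shares were 5.71% and 0%, and the ratios 1.04, 0.38, 0.057, 0.12 (*Shh*) and 0.72 (*Krt15* or *Meis2*), with *Dkk1* at -0.997 and *Krt8* at 0.0013.

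In the members between the 25th and 75th percentile of UMIs, 27 genes were higher, with 0.84 (inner enamel epithelium), 0.21 (ER), 0.42 (*Krt15* or *Meis2*) and -0.12 (*Cldn10*). By the mean of single-cell CPM 22 genes were higher, with 0.76, 0.12 and, over *Cldn10* cells, -0.15. Median-ratio normalization gave 0.72, 0.071 and 0.049, and for the cell cycle 0.020, 0.66 and 0.13 over the 3 groups. With 1 CPM added, 52 genes were higher and 161 lower, with 50 CPM 5 and 7, and by the interval bound nearest 0 they were 7 and 22. A stricter epithelial gate gave shares of 11.4% and 0%, stricter cell filters 0% at E14.5, and leaving out the highest Scrublet scores 0.60 over *Krt15* or *Meis2* cells. Against the cells that pass the limits on *Shh*, *Krt15*, *Meis2* and *Cldn10*, chosen after seeing the data, 45 genes were higher, with 1.19 (inner enamel epithelium), 0.19 (ER), -0.10 (cell cycle) and -0.59 (*Wnt4*).

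*Hbb-bs* was at -0.13 with at least 2 UMIs, -3.05 after thinning and -0.089 without haemoglobin-rich cells, *Hba-a1* at -0.40 and -3.12 in the first 2, and *Hba-a2* at -0.43, -2.64 and -0.33. The planned ratios over E14.5 cells were not run, as 1 cell met the choice. Thinned members number 76, so single genes there rest on few UMIs.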
